A study of Homo sapiens with 4 samples.

Results

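BNIP3 and BNIP3L (also called NIX) are the subject here. They were chosen by name as genes of 2 mitophagy receptors that hypoxia is known to induce, and were proposed with measured values of these data in view, as far as can be told their lower level on the LNCaP-AI-labelled array than on LNCaP. Those values are therefore given as a description with no test. Of 14006 genes with a named probe, the members are 2, each measured by 1 of the 37934 probes (16719644 for BNIP3, NM_004052, and 17067170 for BNIP3L, NM_004331).

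The data are 4 Affymetrix whole-transcript arrays of total RNA from 2 human prostate cancer cell lines, with 1 array per culture and no replicate. LNCaP-AI is labelled as LNCaP cells that became androgen-independent while cultured with charcoal-stripped serum, a serum poor in steroids, and as cells with a low laminin-binding glycan and high motility and invasion. Its description adds medium conditioned by human perineural cells. LNCaP, a line from a lymph node metastasis, is labelled androgen-dependent, with a high glycan and low motility and invasion. PC3-L and PC3-H are cells of PC3, a bone metastasis line independent of androgen, separated with the glycan antibody IIH6C4. PC3-L is labelled low for the glycan with high motility and invasion, and PC3-H high for the glycan with low motility and invasion. The free-text descriptions give the PC3 pair the opposite glycan state, and the description of LNCaP calls it androgen-independent and moderate for the glycan; titles, source names and characteristics were followed. All cultures share RPMI1640 medium. The labels mention neither a hypoxic culture nor an oxygen level.

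BNIP3 and BNIP3L are related proteins of the outer mitochondrial membrane, distant members of the BCL2 family that each hold a BH3-like stretch and a single membrane anchor near the C terminus. A short motif near the N terminus binds proteins of the LC3 and GABARAP families on the forming autophagosome, so that a mitochondrion carrying the receptor is engulfed and degraded. This route does not need the kinase PINK1 or the ubiquitin ligase Parkin. BNIP3 is a well-known target of the hypoxia-inducible factor HIF-1, and BNIP3L is known for clearing mitochondria from maturing red blood cells.

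The letters ACGTG are 1 form of the core that HIF-1 recognises in DNA, so the BNIP3 promoter is printed to show where this form stands. Other forms, such as GCGTG, were not searched for. It was taken from the RefSeq table (GRCh38.p14, chr10:131981874-131982173, minus strand) and runs 5′ to 3′ along the gene, from 250 bases before the annotated start to 50 after. Capitals mark every match to ACGTG, read on both strands.
BNIP3 promoter: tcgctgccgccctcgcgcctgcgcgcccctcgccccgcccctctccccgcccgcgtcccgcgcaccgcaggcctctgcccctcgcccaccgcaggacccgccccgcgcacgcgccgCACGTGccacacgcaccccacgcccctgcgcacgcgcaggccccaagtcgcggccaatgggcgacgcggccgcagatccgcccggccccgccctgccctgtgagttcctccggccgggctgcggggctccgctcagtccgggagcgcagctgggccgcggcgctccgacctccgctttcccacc
The 300 bases held 2 matches, 1 on each strand, at positions 117 to 121 and 118 to 122 of the printed run. They overlap, since the 6 capital letters read the same on both strands, and therefore mark 1 place, which begins 134 bases before the start. Of 35116 promoters of the same length in the table, 7518 (21.4%) held at least 1 match and 8.82% at least 2. The BNIP3 promoter had a G and C content of 80.7%, against a median of 58.7% over these promoters. A match to these letters is a description of the sequence, and no binding was measured.

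The deposited values are intensities on a linear scale. Their distribution hardly differed between arrays, with medians of 39.8 to 41.2 and no value under 17.6. A gene entered a comparison when the higher of its values reached the 40th percentile of that array (33.6 to 34.8), and a difference of at least 2-fold on the log2(intensity + 1) scale is called past 2-fold. Both members passed in all comparisons.

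The identity of the arrays was read from line markers first. The prostate-specific antigen gene KLK3 was 61.2 on the LNCaP-AI-labelled array, against 1781 on LNCaP, with 63.4 on PC3-L and 59.0 on PC3-H. FOLH1, prostate-specific membrane antigen, was 24.2, against 944 on LNCaP, with 23.0 on PC3-L and 23.4 on PC3-H. All 4 measured LNCaP markers were past 2-fold lower on the LNCaP-AI-labelled array than on LNCaP, and 6 of 8 measured PC3 markers were past 2-fold higher. Of these, AXL was 1015 on that array, against 47.4 on LNCaP, with 900 on PC3-L and 609 on PC3-H. The other 2 PC3 markers, LCN2 and S100A6, were within 2-fold of LNCaP. S100A6 was dim, at 41.8 on the LNCaP-AI-labelled array, against 36.4 on LNCaP, with 31.4 on PC3-L and 66.6 on PC3-H. Its PC3-L value is below the 40th percentile of that array (33.6), so S100A6 says little about the line. LCN2 was 46.0 on the LNCaP-AI-labelled array, with 46.1 on PC3-L and 1881 on PC3-H. Whether the low LNCaP markers go with the line or with the steroid-poor serum of the label was not tested. By most of these markers the LNCaP-AI-labelled array goes against its line label, so it is named here by its label alone. The members' values on it stand beside those of the PC3 arrays. The chemokine gene CXCL8, also a PC3 marker, was well below its PC3 values there, at 46.9, against 22.3 on LNCaP, with 497 on PC3-L and 302 on PC3-H. Of the markers of other cell types, CD68, a lysosomal gene of macrophages, was 553 on that array, against 102 on LNCaP, with 630 on PC3-L and 290 on PC3-H. The other leukocyte markers did not move with it: NKG7 was 74.6 on that array, against 75.6 on LNCaP, with 75.8 on PC3-L and 88.0 on PC3-H, and LYZ and CD14 did not pass the filter. ERBB3, a receptor gene of Schwann cells that epithelial cells also express, was highest on LNCaP like the members, at 40.6 on the LNCaP-AI-labelled array, against 188 on LNCaP (4.53-fold lower), and 38.1 on PC3-L, against 80.8 on PC3-H. Of 3 measured perineurial and Schwann markers it was the 1 past 2-fold in the LNCaP pair, and SOX10 lay between 54.2 and 60.8 on the 4 arrays. The part of CD68 and ERBB3 in the results was not tested. THY1 of fibroblasts lay between 47.1 and 51.7, and CLDN5 of endothelial cells between 58.2 and 73.4. AHSP of red blood cell precursors did not pass the filter in either pair.

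BNIP3 stood out on 1 array. It had an intensity of 604 on the LNCaP-AI-labelled array, against 1979 on LNCaP, while the PC3-L value was 619, against 756 on PC3-H. BNIP3L had the same order, with 271 on the LNCaP-AI-labelled array, against 702 on LNCaP, and 300 on PC3-L, against 337 on PC3-H. For both genes LNCaP was the high array, and the other 3 lay close together. These are bulk measurements, in which a lower share of cells with the transcript and less transcript per cell cannot be told apart.

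**Figure D1:**
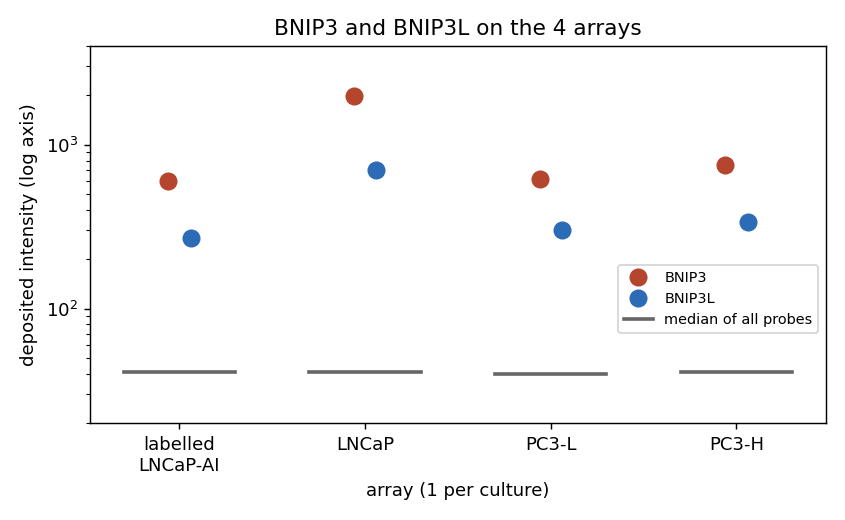
Deposited intensity (log axis) of BNIP3 (red) and BNIP3L (blue) on the 4 arrays, 1 point per array, with the median of all probes of each array as a grey line. BNIP3 reaches 1979 and BNIP3L 702 on LNCaP, while the other arrays lie between 604 and 756 for BNIP3 and between 271 and 337 for BNIP3L; heights of different probes are not comparable.

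Ordered by level, BNIP3 went from LNCaP to PC3-H, PC3-L and the LNCaP-AI-labelled array. The steps between neighbours in that order were 2.62-fold, 1.22-fold and 1.03-fold. BNIP3L had the steps 2.08-fold, 1.12-fold and 1.11-fold over the same arrays. With 1 array per culture no step can be set against a spread between replicates, and the number of arrays limits the precision of every value here.

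The first pair sets the LNCaP-AI-labelled array against LNCaP and asks what goes with androgen independence and a low glycan. BNIP3 was 3.27-fold lower (log2 difference −1.71) and BNIP3L 2.58-fold lower (−1.37). Both members are thus among the genes past 2-fold lower, which were 571 of 11135 (5.13%), while 5.45% were past 2-fold higher. Since the members appear to have been proposed from this contrast, nothing is read from that count. BNIP3 had the 163rd lowest difference of the 11135 genes and BNIP3L the 290th. The difference of BNIP3 was 0.34 lower than that of BNIP3L on the log2 scale.

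Because most line markers of the LNCaP-AI-labelled array were PC3-like, the members were also read against the PC3 arrays. BNIP3 was 1.03-fold lower on it than on PC3-L and BNIP3L 1.11-fold lower. Past 2-fold were 0 of the 2 members in that comparison, against 0.832% of genes higher and 1.96% lower. Against PC3-H the array was 1.25-fold lower for BNIP3 and 1.24-fold lower for BNIP3L, again within 2-fold, where 3.98% of genes were past 2-fold higher and 3.35% lower. PC3-L in the place of the LNCaP-AI-labelled array gave differences from LNCaP of nearly the same size, with 3.19-fold lower for BNIP3 and 2.34-fold lower for BNIP3L. In that comparison 4.51% of genes were past 2-fold lower. Between the 2 arrays labelled high for the glycan, LNCaP was 2.62-fold higher than PC3-H for BNIP3 and 2.08-fold higher for BNIP3L, where 5.46% of genes were past 2-fold higher. These comparisons share arrays and do not count as separate observations. A difference between the lines and one made by the androgen-independent culture cannot be told apart for these genes.

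The second pair, PC3-L against PC3-H, asks what goes with a low glycan within PC3, and shares no array with the LNCaP pair. BNIP3 had a log2 difference of −0.29 and BNIP3L of −0.17, a level 1.22-fold and 1.12-fold lower on PC3-L. Neither was past 2-fold, while 8.58% of 11126 genes were past 2-fold higher and 3.77% lower (955 and 419 genes; 573 and 520 once a trend of the differences with gene length and gene density was removed). Of all genes in that comparison 24.7% had a difference as low as that of BNIP3 and 34.8% as low as that of BNIP3L. At 55.0% of genes the difference was at least as large, in either direction, as that of BNIP3, and at 71.3% as that of BNIP3L. Both members thus lay below the median of all genes (−0.02), with differences of a size that most genes reached. Since they appear to have been proposed from their low values in the LNCaP pair, no contrast between the pairs is read from this. The direction turns if the descriptions are followed in place of the titles.

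**Figure D2:**
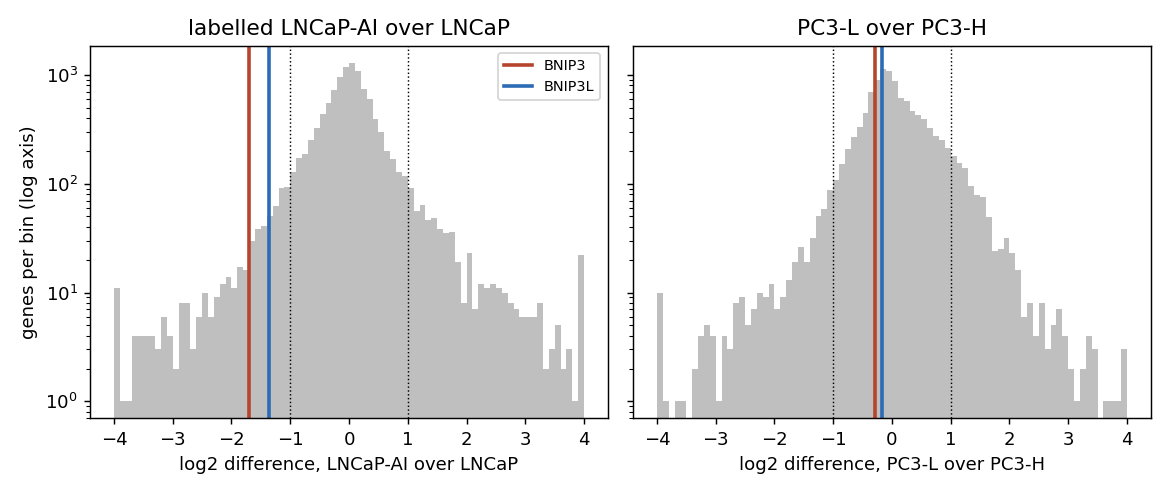
Distribution over genes past the filter (number of genes per bin, log axis) of the log2 difference of the LNCaP-AI-labelled array over LNCaP (left) and PC3-L over PC3-H (right), with BNIP3 in red, BNIP3L in blue and dotted lines at 2-fold; the end bins also hold genes beyond 4. The members lie at −1.71 and −1.37 on the left and at −0.29 and −0.17 on the right.

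The profile of the members, LNCaP at least 2-fold above each other array and those within 2-fold of each other, a rule set after their values were seen, was held by 189 of 11509 genes (1.64%) that reached the 40th percentile on at least 1 array. Of the 15 measured mitophagy receptors and adaptors 2 had it, BNIP3 and BNIP3L themselves. It was held by 0 of 28 autophagosome genes, 0 of 21 genes of the PINK1 and Parkin pathway, 0 of 15 BCL2 family genes, 0 of 10 HIF pathway genes and 0 of 35 hypoxia-induced genes. At a share of 1.64% over all genes, a count of 0 in lists of this size is not set apart from the rest.

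The genes with the most similar profile were taken by the root mean square difference of log2 values, centred per gene, over the 4 arrays. For BNIP3 these were RNF187 (0.073), FRK (0.079), MYLIP (0.082), LRRC26 (0.083) and NAALADL2 (0.084). RNF187, which encodes a RING finger ubiquitin ligase, was 151 on the LNCaP-AI-labelled array, against 430 on LNCaP, with 145 on PC3-L and 175 on PC3-H. MYLIP encodes the ubiquitin ligase that degrades the LDL receptor, FRK a tyrosine kinase and LRRC26 an accessory subunit of potassium channels. For BNIP3L they were LPAR3 (0.021), KLF9 (0.021), ZNF91 (0.035), ZNF554 (0.039) and FAN1 (0.048). LPAR3, a receptor for lysophosphatidic acid, was 65.1 on the LNCaP-AI-labelled array, against 176 on LNCaP, with 71.9 on PC3-L and 82.3 on PC3-H. KLF9 encodes a zinc finger transcription factor and FAN1 a DNA repair nuclease. BNIP3L ranked 48th in likeness to BNIP3, and BNIP3 115th in likeness to BNIP3L, at a distance of 0.17. FRK, NAALADL2 and ZNF554 were below the 40th percentile of each array other than LNCaP, as was ZNF91 on 2 of them, so their distances rest on dim values. With 4 arrays such likeness is weak, and with a pseudocount of 16 only 1 of the 5 genes stayed among the nearest 5 for each member.

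Other receptors and adaptors did not follow the members past 2-fold as a group. Of the 13, 8 had a difference below 0 in the LNCaP pair. The median over all genes was 0.00 there, and nothing is read from a count this small. FUNDC1, an outer membrane receptor that also binds LC3 and is known from hypoxic mitophagy, had the opposite pattern. It was 82.5 on the LNCaP-AI-labelled array, against 29.9 on LNCaP, and 75.7 on PC3-L, against 92.9 on PC3-H. LNCaP was thus the low array for FUNDC1, which was 2.70-fold higher on the LNCaP-AI-labelled array than on LNCaP. Its LNCaP value is below the 40th percentile of that array (34.2), near the floor of the values, so this fold may be understated. NIPSNAP1, a matrix protein that marks damaged mitochondria for adaptors, went with the members, at 115 on the LNCaP-AI-labelled array, against 257 on LNCaP (2.22-fold lower), and 135 on PC3-L, against 137 on PC3-H.

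The remaining 11 receptors and adaptors were within 2-fold in the LNCaP pair. NLRX1 had a log2 difference of −0.55 and the receptor BCL2L13 of −0.61. The inner membrane receptor PHB2 had −0.22 and its partner PHB1 0.35. Among ubiquitin-binding adaptors, OPTN had 0.82, SQSTM1 −0.13, CALCOCO2 −0.38, TAX1BP1 −0.29 and TOLLIP 0.33. CALCOCO1 had 0.78 and NIPSNAP2 −0.37. In all, 1 of 15 was past 2-fold higher and 3 lower, against 5.45% and 5.13% over all genes. The 3 lower genes are NIPSNAP1 and the members themselves. Since the members appear to have been proposed from this contrast, nothing is read from that count. The list had a median of −0.29 (−0.22 over the 13 other than the members), against 0.00 over all genes tested. FKBP8, NBR1 and CARD8 of this list are not analysed here.

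Between PC3-L and PC3-H 0 of the 15 were past 2-fold in either direction, and the median was −0.01, against −0.02 over all genes. Of all genes in that pair 8.58% were past 2-fold higher and 3.77% lower. PHB1 had the lowest difference (−0.94), followed by FUNDC1 and BNIP3 (both −0.29), and OPTN the highest (0.87), followed by TAX1BP1 (0.74) and BCL2L13 (0.62).

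**Figure D3:**
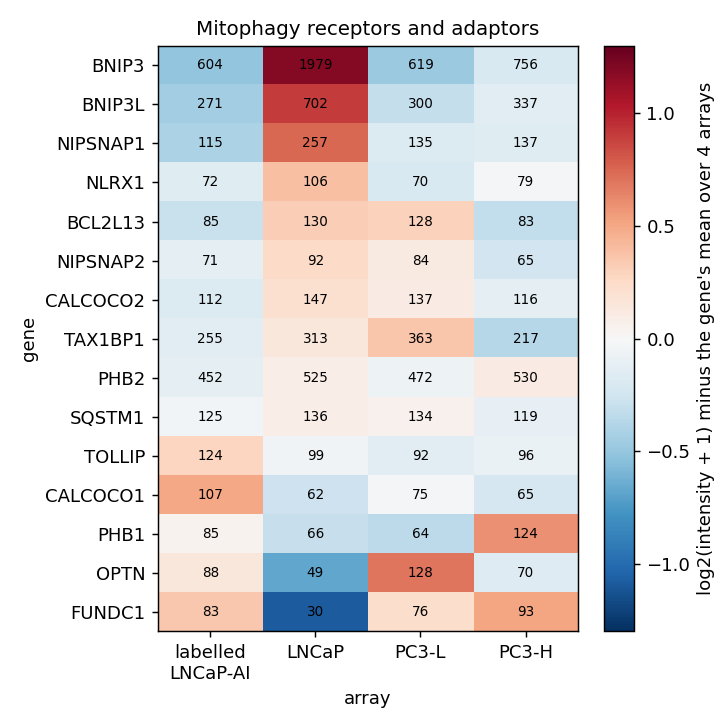
Log2(intensity + 1) minus the mean of the gene over the 4 arrays (colour) for the 15 measured mitophagy receptors and adaptors, ordered by their LNCaP value, with the intensity printed in each cell. BNIP3, BNIP3L and NIPSNAP1 have their highest value on LNCaP, as do, by smaller margins, NLRX1, CALCOCO2, NIPSNAP2, BCL2L13 and SQSTM1. FUNDC1, at 29.9 on LNCaP, has its lowest value there, as do OPTN and CALCOCO1.

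Genes that act on BNIP3 and BNIP3L proteins, or bind them, were compared next. FBXL4, part of the ubiquitin ligase that restrains both receptors, was 143 on the LNCaP-AI-labelled array, against 163 on LNCaP, and 193 on PC3-L, against 82.3 on PC3-H. It was thus within 2-fold in the LNCaP pair and 2.32-fold higher on PC3-L than on PC3-H. PPTC7, the phosphatase that works with FBXL4, had log2 differences of 0.04 in the LNCaP pair and 0.09 in the PC3 pair. RHEB, a small GTPase that binds BNIP3L at mitochondria, had 0.20 and 0.42. BNIP2, whose protein was found in the same screen for partners of BCL2-like proteins as BNIP3, was 2.16-fold higher on PC3-L than on PC3-H, but within 2-fold with the mean over its probes (log2 difference 0.52). FBXL4 was also within 2-fold (0.90) with the length and density trend removed. HSPA1A, a heat shock chaperone nearly identical to HSPA1B, was 3.07-fold lower on PC3-L, and its probe could read both. In the LNCaP pair 0 of 8 measured genes of this list were past 2-fold (median −0.04), and in the PC3 pair 2 were higher and 1 lower (median 0.21). Over all genes 5.45% were higher and 5.13% lower in the LNCaP pair, and 8.58% and 3.77% in the PC3 pair.

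Of 28 autophagosome genes past the filter 0 were past 2-fold in the LNCaP pair, against 5.45% higher and 5.13% lower over all genes, and the median was 0.07. A count of 0 in 28 does not set them apart from that share. Of the LC3 and GABARAP genes that the receptors bind, GABARAP had 0.03 and GABARAPL1 −0.04 in that pair, while GABARAPL2 had −0.48. MAP1LC3A had 0.08 and MAP1LC3B 0.16, but both were dim. On LNCaP they were 47.1 and 39.3, against a median of 40.8 over all probes and a 40th percentile of 34.2. Differences near 0 between values this dim do not show an unchanged level. In the PC3 pair MAP1LC3A had 0.76 and MAP1LC3B 0.60, both within 2-fold. On PC3-L, relative to PC3-H, 3 of the 28 genes were higher and 0 lower (median 0.19), against 8.58% and 3.77% over all genes. The 3 were RB1CC1, a scaffold of the ULK1 complex, 3.74-fold higher (288 on PC3-L, against 76.4 on PC3-H), the lipid transfer gene ATG2B (2.67-fold) and ATG5. ATG5, which helps attach LC3 to membranes, was 2.20-fold higher, but had a log2 difference of 0.81 with the length and density trend removed.

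The other route to mitophagy was measured by 21 genes of the PINK1 and Parkin pathway. In the LNCaP pair 0 of 21 were past 2-fold (median −0.13), against 5.45% higher and 5.13% lower over all genes, with PINK1 itself at 0.50. In the PC3 pair 3 of 21 were higher and 0 lower (median 0.02), against 8.58% and 3.77% over all genes. These were RHOT1, which ties mitochondria to microtubule motors (2.58-fold), TBK1, a kinase that activates adaptors (2.18-fold), and the deubiquitinase USP8 (2.16-fold). With the length and density trend removed TBK1 (0.88) and USP8 (0.82) were within 2-fold, as was OMA1 (0.94), named next. Genes of mitochondrial dynamics showed 0 of 10 past 2-fold in the LNCaP pair (median −0.35), and 2 of 10 higher in the PC3 pair (median 0.29), the protease OMA1 (2.45-fold) and the fission GTPase DNM1L (2.05-fold), which was within 2-fold in 4 of 8 alternatives (0.58 to 0.94). With the length and density trend removed 0 of the 10 were higher and 1 lower. Of 6 genes of mitochondrial biogenesis 0 were past 2-fold in either pair, with medians of 0.09 in the LNCaP pair and −0.03 in the PC3 pair. The shares over all genes given above hold for these lists too, and nothing is read from counts this small.

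The BCL2 family, to which the members are distantly related, had 3 of 15 genes higher and 0 lower in the LNCaP pair, against 5.45% higher and 5.13% lower over all genes (median 0.51), the survival gene BCL2A1 (82.6, against 26.1 on LNCaP, 3.09-fold, where the LNCaP value is below the 40th percentile of that array and the fold may be understated), the effector BOK (232, against 102 on LNCaP, 2.27-fold) and BCL2 (86.9, against 42.0 on LNCaP, 2.05-fold). In the PC3 pair 4 of 15 were higher and 0 lower, against 8.58% and 3.77% (median −0.08), BCL2A1 (4.03-fold), MCL1 (3.50-fold), BCL2 (2.49-fold) and the BH3-only gene PMAIP1 (2.23-fold). BCL2 was within 2-fold in the LNCaP pair with a pseudocount of 16 (0.83) and in the PC3 pair with the length and density trend removed (0.82). BCL2L1, whose protein binds BNIP3, had log2 differences of 0.93 in the LNCaP pair and −0.33 in the PC3 pair.

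HIF1A, which encodes the oxygen-regulated subunit of HIF-1, VHL and EGLN2 are not analysed here. EPAS1, which encodes its relative HIF-2 alpha, was 142 on the LNCaP-AI-labelled array, against 38.9 on LNCaP, and 512 on PC3-L, against 442 on PC3-H. It was lowest on LNCaP, where the members were highest, and was 3.60-fold higher on the LNCaP-AI-labelled array than on LNCaP. The LNCaP value of EPAS1 is below the median of all probes on that array (40.8), so this fold rests on a dim value. ARNT, the partner of both subunits, had log2 differences of −0.31 in the LNCaP pair and 0.40 in the PC3 pair. The prolyl hydroxylases that mark HIF subunits for degradation had −0.36 (EGLN1) and −0.50 (EGLN3) in the LNCaP pair, and 0.21 and −0.24 in the PC3 pair. Over all genes 5.45% were past 2-fold higher and 5.13% lower in the LNCaP pair, and 8.58% and 3.77% in the PC3 pair. Of 10 HIF pathway genes 1 was past 2-fold higher in the LNCaP pair, EPAS1 (median −0.16), and of 9 in the PC3 pair 1, the coactivator EP300 (2.06-fold; median 0.21), which was within 2-fold in 4 of 8 alternatives (0.87 to 1.00).

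Hypoxia-induced genes other than the members lay on both sides of 0 in the LNCaP pair. There 1 of 35 was past 2-fold higher and 4 lower, against 5.45% and 5.13% over all genes. Of the 62 genes listed, 36 were measured and 35 passed the filter, so these counts cover part of the list. The median was −0.19, against 0.00 over all genes, and 19 of 35 were below 0. DDIT4, an inhibitor of mTORC1 signalling, was 171 on the LNCaP-AI-labelled array, against 556 on LNCaP (3.23-fold lower). The glycolytic gene GPI was 857, against 2317 on LNCaP (2.70-fold lower), the lipid droplet gene HILPDA 83.3, against 184 (2.20-fold lower), and the hexokinase HK2 91.5, against 187 (2.03-fold lower). The cross-linking enzyme gene LOX was 130, against 43.0 on LNCaP (2.97-fold higher). The LNCaP value of LOX is near the median of all probes on that array (40.8), so this fold rests on a dim value. VEGFA, the angiogenic factor, had a log2 difference of 0.09, LDHA, which makes lactate, 0.03, and the glycolytic gene PGK1 −0.84.

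Of the hypoxia-induced genes, DDIT4, HILPDA and LOX were past 2-fold in both pairs, and others in the PC3 pair alone. There 5 of 35 were lower and 4 higher, against 3.77% and 8.58% over all genes. Of the 35, 25 were below 0 (median −0.35, against −0.02 over all genes). Lower on PC3-L were IGFBP3 (81.2, against 283 on PC3-H), PGM1 (161, against 382), NDRG1 (69.8, against 161), STC2 (158, against 335) and HILPDA (81.1, against 169). Higher were VLDLR (4.20-fold), LOX (3.38-fold), WSB1 (2.79-fold) and DDIT4 (500, against 213 on PC3-H). DDIT4 thus lay on opposite sides in the 2 pairs by the titles, and on the same side with the descriptions followed (−1.23 in the PC3 pair). HILPDA was past 2-fold lower in both by the titles, and in opposite directions with the descriptions followed (1.05 in the PC3 pair). It was within 2-fold in the PC3 pair with a pseudocount of 16 (−0.93) or the length and density trend removed (−0.91). HK2 was within 2-fold in the LNCaP pair with a pseudocount of 16 (−0.92).

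**Figure D4:**
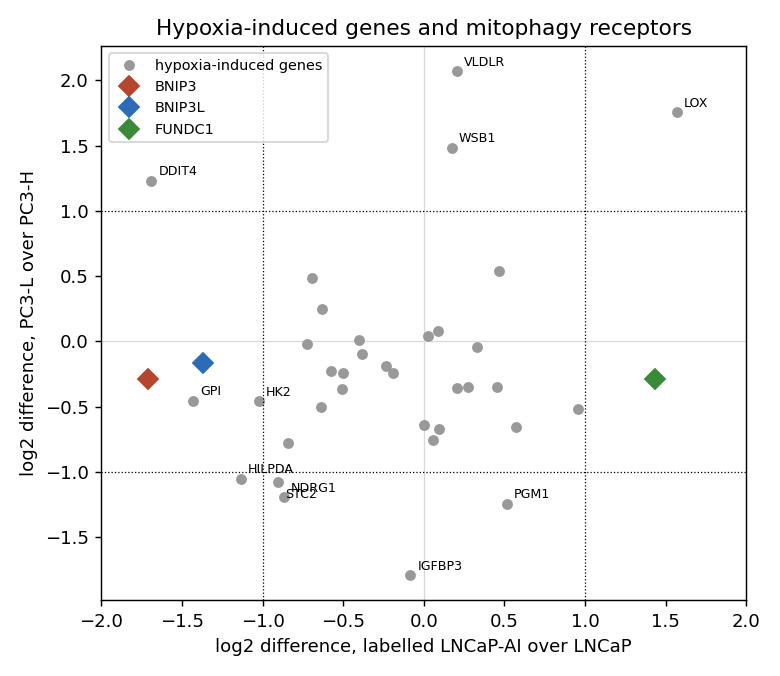
Log2 difference of PC3-L over PC3-H (vertical) against that of the LNCaP-AI-labelled array over LNCaP (horizontal) for 35 hypoxia-induced genes (grey; named where past 2-fold in either pair) and for BNIP3, BNIP3L and FUNDC1 (diamonds), with dotted lines at 2-fold. BNIP3 and BNIP3L lie far left near the horizontal axis, DDIT4 upper left, HILPDA lower left, and FUNDC1 and LOX on the right.

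Of 15 other known regulators of the members 1 was past 2-fold lower and 0 higher in the LNCaP pair (median 0.05). This was HDAC1, a histone deacetylase, at 163 on the LNCaP-AI-labelled array, against 331 on LNCaP (2.02-fold lower), and at 207 on PC3-L, against 329 on PC3-H. It was within 2-fold in 3 of 8 alternatives (−0.98 to −0.95). The factor FOXO3, an inducer of both genes in mouse muscle, had a log2 difference of −0.39 and E2F1 0.55. The DNA methyltransferase DNMT1, linked to silencing of BNIP3 in some tumours, had 0.18, DNMT3A −0.45 and DNMT3B 0.05. In the PC3 pair 1 of 15 was higher (median 0.09), the tumour suppressor RB1, 4.01-fold higher (512 on PC3-L, against 127 on PC3-H). Among all genes 5.45% were past 2-fold higher and 5.13% lower in the LNCaP pair, and 8.58% and 3.77% in the PC3 pair.

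Neighbouring genes on the chromosome were read next. BNIP3 lies on chromosome 10 and BNIP3L on chromosome 8, and the 10 nearest named genes on each side were read by their order in the RefSeq table. Around BNIP3, 15 of 20 neighbours passed the filter, of which 1 was past 2-fold lower and 0 higher, and their median was −0.06. Around BNIP3L, 17 of 20 passed, of which 2 were lower and 2 higher, with a median of −0.05. Over all genes 5.13% were lower and 5.45% higher, and nothing is read from counts this small. The differences ran from −1.27 to 0.89 around BNIP3 and from −1.26 to 2.21 around BNIP3L. For PC3-L over PC3-H the medians were −0.07 around BNIP3 and 0.28 around BNIP3L.

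RefSeq lists pseudogenes of BNIP3, and 0 of the named probes belong to one. Whether the BNIP3 probe also reads transcripts of such copies was not tested. Each member had 1 probe, so no second probe checks its values.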

How the data were processed

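Total RNA of 4 cultures was measured on 1 array each. ISOGEN II served for extraction and the WT Terminal Labeling Kit for biotin labelling, per the labels' protocols, and the design text names GeneSpring GX 12.6 for the study's pairs. The deposited numbers are linear intensity values, as their range shows. Probe summary, background correction and normalisation by the authors are not given in the sources used here. Of 37934 probes, 14952 had 1 gene symbol in the platform annotation, 0 had several, and all 14952 matched RefSeq (GRCh38.p14) by Entrez identifier. For the 583 genes with over 1 probe the probe with the highest mean was used.

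Differences were computed as log2(intensity + 1) with python 3.11.15, pandas 2.3.3 and statsmodels 0.14.6, over genes passing a filter (the higher value at or above the 40th percentile of its own array); made-up arrays with known changes were used to check the calculation. No p-value is given, because each group had 1 array, and the number of arrays limits the precision. The members and the 10 gene lists were chosen with earlier results of these data known. List counts cover only genes that were measured, such as 36 of 62 hypoxia-induced genes, 10 of 20 HIF pathway genes and 6 of 17 genes of mitochondrial biogenesis. The rule for genes with the members' profile across the arrays, the chromosome neighbours and the promoter search were added after the members' values had been seen. Named were the members, every measured receptor and adaptor, up to 5 genes past 2-fold per other list, pair and direction, the main HIF genes, line markers and the 5 genes nearest in profile to each member. Alternatives covered the pseudocount, the filter, median centring, quantile normalization, loess on the mean level, a quadratic trend in gene length and in the span of neighbouring genes, the mean over probes, and the opposite labels of the PC3 pair.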

Additional observations from a re-analysis of the deposited data

Results flagged for a closer look

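DDIT4, a hypoxia-induced gene whose product restrains mTORC1, was past 2-fold in opposite directions in the 2 pairs. Only genes past 2-fold in both pairs were considered, a limit set after the values had been seen, so FUNDC1, with 1.43 in the LNCaP pair and −0.29 in the PC3 pair, is not counted. It was 171 on the LNCaP-AI-labelled array, against 556 on LNCaP (log2 difference −1.69), and 500 on PC3-L, against 213 on PC3-H (1.23). The difference in the LNCaP pair was 2.92 lower than in the PC3 pair (−2.92), and it was not tested, since each group had 1 array. It rests on the titles of the PC3 pair: with the descriptions followed DDIT4 is −1.23 in that pair, on the same side as in the LNCaP pair. Of 5 named genes past 2-fold in both pairs, 1 (DDIT4) lay on opposite sides by the titles, and the other 4 (BCL2, BCL2A1, HILPDA and LOX) would with the descriptions followed. BNIP3 and BNIP3L were lower in both pairs by the titles (0.29 and 0.17 in the PC3 pair with the descriptions followed), past 2-fold in the LNCaP pair alone, and the gap between the pairs was likewise not tested.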

How the results depend on the processing

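In the LNCaP pair the difference of BNIP3 lay between −1.71 and −1.53 and that of BNIP3L between −1.37 and −1.26 over the 9 alternatives, past 2-fold lower in each. In the PC3 pair they lay between −0.44 and −0.24 and between −0.34 and −0.12, within 2-fold in each; with the descriptions followed the sign turns by construction, to 0.29 for BNIP3 and 0.17 for BNIP3L. The counts of the LNCaP pair stayed within 1.5 times of 607 higher and 571 lower. In the PC3 pair 955 genes were higher and 419 lower, against 573 higher and 520 lower without the length and density trend, and 419 higher and 955 lower with the descriptions followed. The split was 821 higher and 483 lower after quantile normalization; the cause was not tested. Of 38 named differences past 2-fold other than the members', 13 were within 2-fold in at least 1 alternative and 0 reversed, the turned PC3 labels aside, which turn the sign of every PC3 difference. Line markers and differences within 2-fold outside the receptors and HIF genes were not followed across alternatives.

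List medians that moved by over 0.1 on the log2 scale were nearly all of the PC3 pair; that limit was set after these medians had been seen. With the length and density trend removed they were 0.11 (partners and turnover), 0.038 (autophagosome), −0.25 (BCL2 family), 0.030 (HIF pathway), −0.042 (other regulators) and 0.031 (mitochondrial dynamics). Quantile normalization gave −0.13 (receptors and adaptors), −0.11 (PINK1 and Parkin), −0.016 (other regulators) and 0.17 (dynamics), and loess gave −0.12 (receptors and adaptors), −0.10 (PINK1 and Parkin), 0.062 (HIF pathway) and 0.18 (dynamics). With a filter at the 60th percentile, which leaves fewer genes, they were 0.33 (partners and turnover), −0.21 (BCL2 family) and 0.47 (dynamics), and 0.15 for the HIF pathway in the LNCaP pair, which turned its sign. The mean over probes gave −0.21 for the BCL2 family. With the descriptions followed, turned signs gave −0.21 (partners and turnover), −0.19 (autophagosome), 0.082 (BCL2 family), −0.21 (HIF pathway), 0.35 (hypoxia-induced), −0.090 (other regulators) and −0.29 (dynamics).

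No paired analysis was possible because each group had 1 array. Both members were far above the floor of the values, so dim signal does not limit them, but with no replicate no difference has an error. No alternative covers the doubt about the line of the LNCaP-AI-labelled array.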
